A study of Mus musculus with 8 samples.

Results

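The hypothalamus of mice lacking fibromodulin (Fmod knockout) is described here by its own gene expression, from the 4 arrays labelled as hypothalamus among the 8 arrays of the series. The mice were C57BL/6 males of 13 weeks, and each array received total RNA from the hypothalamus of 1 sample. The other 4 arrays hold liver of mice of the same knockout genotype, sex, strain and age, and wild-type tissue was not analysed here. Every sample used thus carries the Fmod deletion, so no value below is an effect of it. Members were chosen by the sample labels alone, and a probe was used where its detection p-value, the share of negative control beads at least as bright, was under 0.05 on all 4 hypothalamus arrays.

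The hypothalamus is a small region at the base of the brain that governs feeding, body temperature, water balance, stress responses, reproduction and the daily rhythm, largely through neurons that release peptides. It lies below the thalamus and surrounds the lower part of the third ventricle, whose lining, blood vessels, meninges and secretory choroid plexus lie close to it. Fibromodulin is a small leucine-rich proteoglycan, a secreted matrix protein that binds collagen fibrils.

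The array carried 25697 probes, of which 11941 (46.5%) passed detection in all 4 hypothalamus samples and 10234 in none. Detected probes named 8488 of the 16593 genes with a probe (51.2%), and 2085 of these genes had more than 1 such probe. At the edge of the detection rule, a probe of Abhd1 was kept with a highest detection p of 0.0489 over the 4 arrays, and a probe of Dbndd2 was left out with 0.0501. Single arrays detected between 13285 and 13753 probes, had a median intensity between 142.4 and 169.1, and correlated with one another at 0.983 to 0.991 over the detected probes. Array 3 had the lowest median. The number of arrays, 4, limits the precision of everything below, and the labels do not state how the tissue was dissected.

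The 2 probes for Fmod itself were near background. The first had intensities of 137.6, 141.9, 134.9 and 143.7 on arrays 1 to 4, with detection p-values of 0.786, 0.578, 0.112 and 0.659. The second had intensities of 152.0, 174.3, 137.7 and 155.3, with detection p-values of 0.237, 0.00251, 0.0752 and 0.201. Only 1 of these 8 readings passed the detection threshold, the second probe on array 2. The labels do not say which part of the gene was deleted, so these probes may lie outside it and then check nothing. Of the 16 genes of the small leucine-rich proteoglycan family with a probe, 5 were detected on all 4 arrays, namely Prelp, Dcn, Bgn, Ogn and Lum. Decorin (Dcn), another collagen-binding member, had log2 intensities of 9.57, 10.13, 9.86 and 10.13. Biglycan (Bgn) had 8.93, 9.59, 10.13 and 9.40, and osteoglycin (Ogn) had 6.09, 7.70, 8.71 and 7.37. Both were lowest on array 1 and highest on array 3, a pattern taken up further below.

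Signal was spread over many genes. Each array's intensities were corrected for background with limma's normexp method, and each probe was expressed as a share of that array's total. The 100 brightest probes held 14.4%, 15.2%, 15.5% and 14.7% of the signal on hypothalamus arrays 1 to 4, against 22.4%, 21.4%, 21.8% and 21.0% on liver arrays 1 to 4. The brightest probes that together hold 50% of the signal numbered 797, 743, 743 and 777 on hypothalamus arrays, against 410, 426, 429 and 429 on liver arrays. The tissues did not overlap in either measure. The share averaged 15.0% ± 0.475 in hypothalamus and 21.7% ± 0.589 in liver (SD, n = 4 each), a difference of −6.67 percentage points. The number of probes averaged 765 ± 26.7 in hypothalamus and 423.5 ± 9.11 in liver (SD, n = 4 each), a difference of 341.5. In a two-sided exact permutation test over arrays, each difference gave p = 0.0286, the smallest that the 70 splits of 8 arrays allow, and an adjusted p of 0.0286 over both measures. As the labels say no more of how the samples were taken, such a p-value reflects only how these 8 samples varied, which may be technical in part. The test takes the arrays as independent, and the labels do not say whether equal replicate numbers mark the same mouse. With the replicate number as a block, an exact sign-flip test gave p = 0.125 for each difference, the smallest that 4 pairs allow. The hypothalamus was thus less dominated by a few bright probes than the liver of the same genotype.

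**Figure D1:**
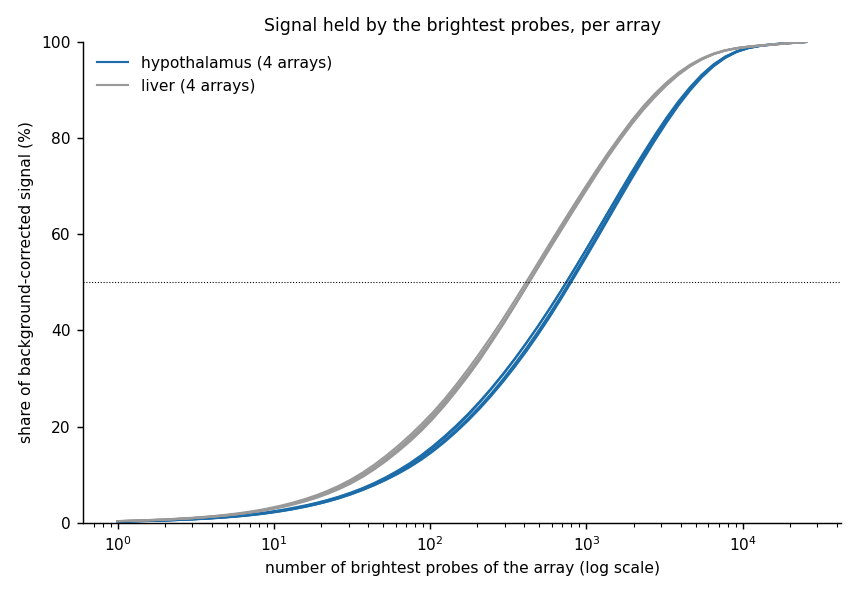
Cumulative share of background-corrected signal (vertical axis, %) against the number of brightest probes counted (horizontal axis, log scale), with 1 line for each of the 4 hypothalamus and 4 liver arrays and a dotted line at 50%. The hypothalamus lines lie below the liver lines at 100 probes and reach 50% at 743 to 797 probes, against 410 to 429 probes in liver.

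For the ranking within the tissue, the 4 hypothalamus arrays were normalized together and put on a log2 scale, and a gene was read from its brightest detected probe. Levels ran between 5.13 and 15.05 with a median of 8.55. A rank given as a percentile is that of the gene's mean over 4 arrays among the 8488 detected genes, with 100 the brightest and 50 the median gene. Probe brightness depends on the probe as well as on the RNA, so the rank is one of probe signal and not of molecules.

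The brightest gene was Ckb, the brain form of creatine kinase, which buffers ATP, with log2 intensities of 15.03, 15.03, 15.03 and 15.10. Next came Rplp1, a protein of the large ribosomal subunit, with 14.93, 15.10, 15.10 and 15.00, and Tuba1b, an alpha tubulin, with 15.00, 14.93, 14.90 and 14.90. These 3 genes lay within 0.17 on the log2 scale over the 4 arrays. Normalizing the arrays together gives probes of equal rank equal values, so narrow ranges at the top are partly built in. As shares of signal before normalization, Rplp1 held 0.225%, 0.259%, 0.276% and 0.237% on arrays 1 to 4. The 25 brightest genes held 4.86% of the signal on average, and the widest range among them was 0.29, in Syt11. They included the ribosomal protein genes Rpl41, Rpl38, Rpl9, Rps20 and Rps12 and the ATP synthase subunit genes Atp5b and Atp5g3. Others were Mt1, a metal-binding metallothionein, Fth1, the ferritin heavy chain that stores iron, Prnp, the prion protein, Hspa8, a constitutive chaperone, and Gapdh of glycolysis. Rtn1, a neuronal reticulon, and Syt11, a synaptotagmin, were neuronal or vesicle genes among them. Dbi, an acyl-CoA binding protein, Eif4a2, a translation initiation factor, Gprasp1, Mtch1, Wbp2, Zcchc18 and Rasgrf1 completed the named set with Ubb-ps. The last is annotated as a pseudogene of ubiquitin B, and its probe cannot be told apart from the parent gene here. Among the 25 brightest probes, 5 had no gene name in the annotation.

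Genes of protein synthesis and energy supply filled the top ranks. Of 59 ribosomal protein genes with a probe, 53 were detected, their median percentile was 97.1, 42 were in the top 10% of genes, and they held 4.07% of the signal. All 11 genes of complex IV, the last enzyme of the respiratory chain, were detected, at a median percentile of 98.8. Its Cox4i1 had log2 intensities of 14.01, 13.99, 14.06 and 13.96. Complex I followed at a median percentile of 96.1 (32 of 34 genes detected), with Ndufa13 at 14.06, 14.10, 14.09 and 14.06. These levels differed by no more than 0.10 among arrays. Glycolysis lay at a median of 95.0, ATP synthase at 94.3, the proteasome and ubiquitin genes at 93.4 and the cytoskeleton at 93.1.

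Neuronal genes ranked nearly as high. Of 24 general neuron markers, 21 were detected, at a median percentile of 91.4, led by Rtn1, by Syp, a membrane protein of synaptic vesicles, and by Eno2, the neuronal enolase. Syp had log2 intensities of 14.25, 14.27, 14.38 and 14.30, and Eno2 had 14.00, 13.88, 14.03 and 13.93. Snap25, a core protein of vesicle fusion, and Nefl were not detected on any array, and a missing probe signal does not show a missing transcript. Synaptic vesicle genes had a median percentile of 93.8 (18 of 20 detected). Of 14 genes of GABA and glutamate transmission, 9 were detected, at a median percentile of 85.4. Slc17a6, the vesicular glutamate transporter of subcortical neurons, had 13.86, 13.67, 13.77 and 13.60, at the 98.9th percentile. Slc32a1, the vesicular transporter of GABA and glycine, had 13.18, 13.15, 13.27 and 13.27, at the 97.8th percentile. Slc17a7, the glutamate transporter typical of cortex, was detected on 3 of 4 arrays. Gad2, Grin2b and Gabra2 were not detected on any array, and Slc17a8, another vesicular glutamate transporter, lay at the 28.2nd percentile.

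Several peptides that define the region were bright. Of 26 neuropeptide genes with a probe, 23 were detected on all 4 arrays, at a median percentile of 85.9, and 11 of them were in the top 10% of genes. Pmch, which encodes melanin-concentrating hormone of the lateral hypothalamus, had log2 intensities of 14.19, 14.19, 14.23 and 14.25, at the 99.5th percentile. Oxytocin (Oxt), made by magnocellular neurons, had 13.72, 13.97, 13.79 and 13.19. Vasopressin (Avp), which governs water balance, had 12.58, 13.11, 13.02 and 12.92. Pmch had a narrow range after normalization, while Oxt was low on array 4 and Avp on array 1. Cartpt, Trh, Sst, Hcrt, Gal, Pdyn, Vgf and Tac1 were also above the 90th percentile. Hcrt, the hypocretin or orexin precursor that maintains wakefulness, had 12.50, 12.20, 12.58 and 12.32. Pomc, the source of melanocortins, was lower, with 9.27, 9.33, 9.03 and 9.27 at the 60.8th percentile. The dimmer members were Ghrh, Cck, Bdnf, Vip, Nms, Nts, Kiss1, Grp and Nmu, with Nmu the dimmest at the 18.5th percentile. Crh and Galp were not detected on any array, and Tac2 was detected on 3. Hdc, the enzyme that makes histamine in the tuberomammillary nucleus, had 12.21, 12.07, 11.67 and 12.49, at the 92.9th percentile. Granins and prohormone-processing genes, which package peptides, had a median percentile of 89.8 (8 of 9 detected), with Scg2 at 13.55, 13.51, 13.13 and 13.43.

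Regulators and receptors of the same circuits lay far lower. Of 24 transcription factors of hypothalamic development with a probe, 11 were detected, at a median percentile of 27.6, where 51.2% of all genes with a probe were detected. Isl1, a LIM-homeodomain factor of arcuate neurons, led them with 10.97, 11.09, 10.58 and 11.20, followed by Dlx1 of GABA neurons with 10.38, 10.53, 10.35 and 10.59. Nkx2-1, which patterns the ventral hypothalamus, had 7.31, 7.43, 7.01 and 7.83. Sim1, Otp, Rax and Six6 were not detected on any array. Of 18 receptors of energy balance, 10 were detected, at a median percentile of 24.0, and Lepr, the leptin receptor, was not detected on any array. The brightest was Ntrk2, the receptor of BDNF, at 12.23, 12.47, 12.04 and 12.40, which many other neurons also express. Mc4r, the melanocortin receptor at which loss of function causes obesity, had 5.61, 6.40, 6.32 and 6.47, at the 13.6th percentile.

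Glial and vascular cells were visible in the ranking. In bulk tissue, more cells of a type and more RNA per cell cannot be told apart. Astrocyte markers had a median percentile of 90.5 (16 of 20 detected). Slc1a3, the glial glutamate transporter, had 14.26, 14.21, 14.22 and 14.19. Clu had 13.84, 13.84, 13.88 and 13.84, and both ranges were narrow after normalization. Myelin genes had a median percentile of 84.7 (16 of 19 detected), led by Mbp, myelin basic protein, with 14.35, 14.23, 14.53 and 14.29. Brain endothelium was at a median of 67.0, microglia at 32.5, and pericytes and smooth muscle at 18.6. Of 18 plasma protein genes made mainly by liver, 5 were detected on all 4 arrays and 11 on none, Alb among them. Of 14 pituitary genes, 3 were detected on all 4 arrays, Chga, Pomc and Trhr, and the hormone genes Gh and Prl were detected on 2 arrays and 1 array. The label of the tissue thus matched its defining peptide markers, while several defining transcription factors were not detected.

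**Figure D2:**
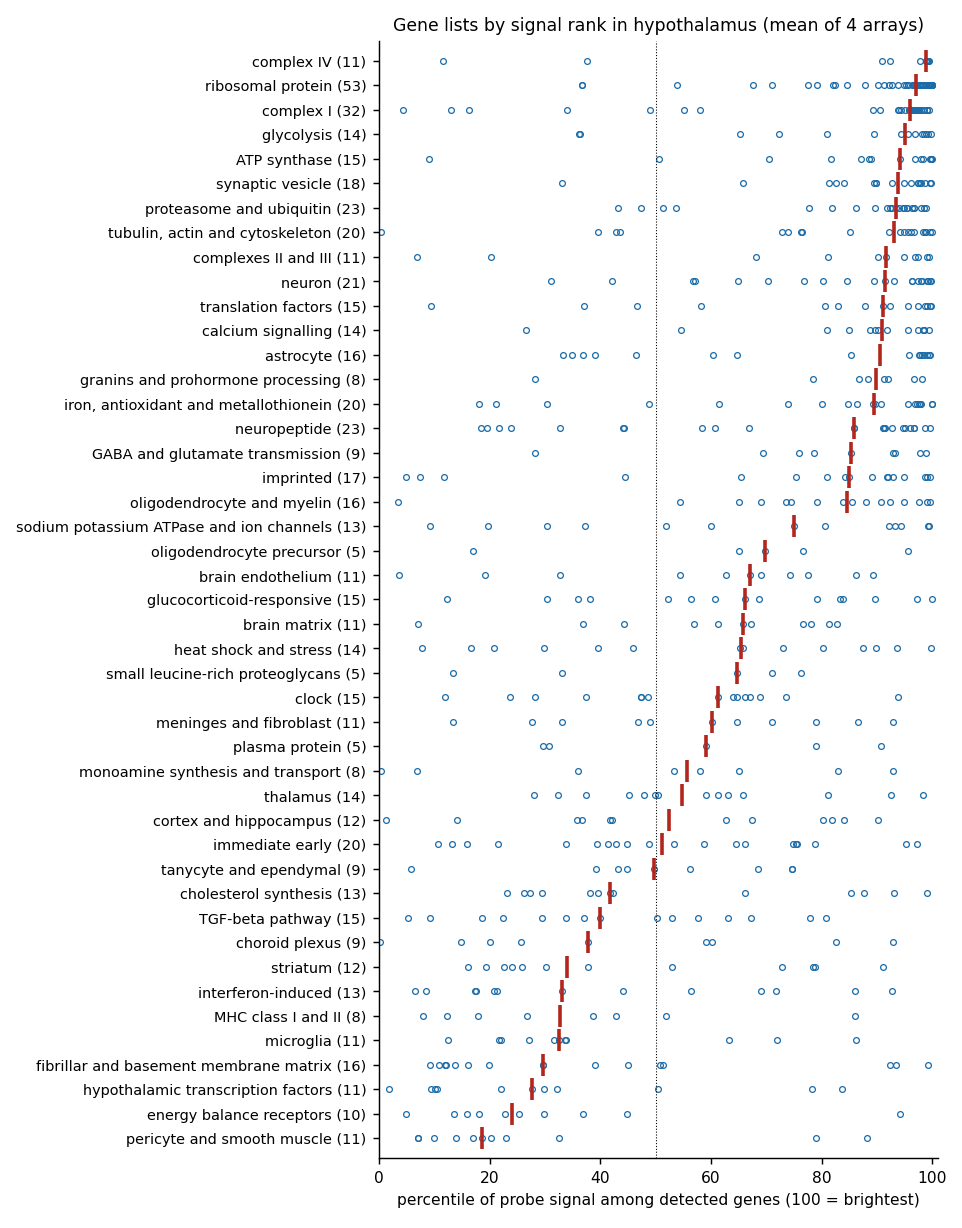
Signal rank of gene lists in hypothalamus, with 1 row per list with at least 5 detected genes (their number in brackets) and the percentile of each detected gene on the horizontal axis (100 is brightest). Circles are genes and red bars are medians, which run up to 98.8 for complex IV, while receptors of energy balance have a median of 24.0 and hypothalamic transcription factors 27.6.

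Most genes varied little among the 4 samples. The range of a gene, its highest minus its lowest array on the log2 scale, had a median of 0.35, which is 1.27-fold. It was 0.26 for genes at or above the median level, called bright below, and 0.47 for dimmer genes. A range over 2-fold was found for 414 of 8488 genes (4.88% of all detected genes), and for 78 of 4244 bright genes (1.84%). As these genes were picked for their range, the patterns below are descriptions with no test. The gene lists were chosen with earlier results of these data known. Their counts on an array, set below beside the share of all genes, are thus description and no independent support. Each was classed by the arrays that lay above the widest gap in its 4 values. Array 1 alone was high for 138 genes (1.63% of all detected genes), array 3 alone for 61 genes (0.719%), and arrays 2, 3 and 4 together, with array 1 low, for 36 genes (0.424%). The median gene span in the RefSeq annotation of GRCm38.p6 was 54743.5 bases for the genes high on array 1 alone, 20582 for those high on array 3 alone and 7806.5 for those low on array 1 alone. Over all detected genes it was 21959 bases, with a span known for 8485 of 8488. Gene span thus moved with the array 1 classes, and its part in them was not tested. All other combinations held 38 genes or fewer each. The counts depend on the background correction and on single arrays: without correction 91 genes exceeded 2-fold, with array 1 alone high for 31 and array 3 alone high for 19, and without array 1 the count was 170.

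**Figure D3:**
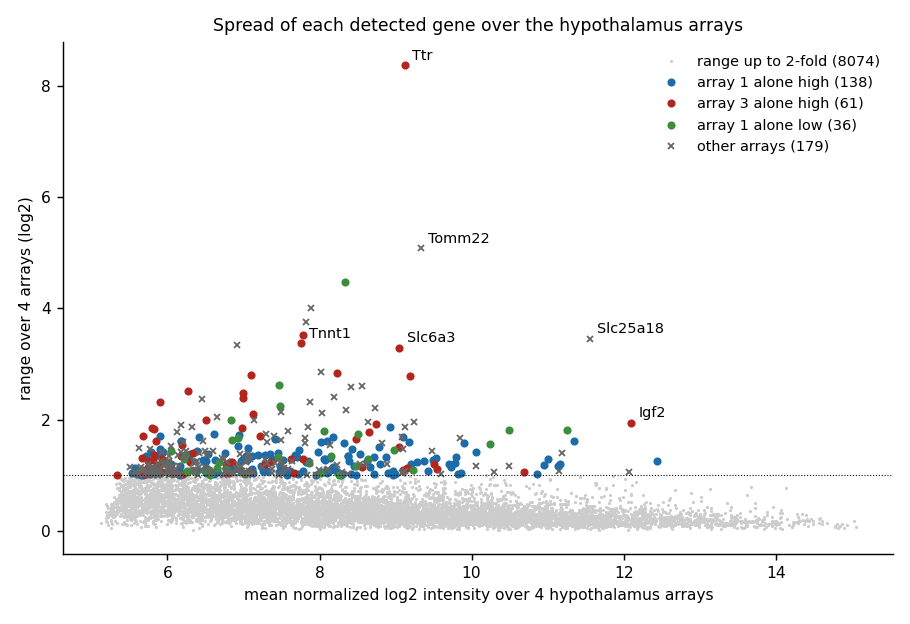
Range over the 4 hypothalamus arrays (vertical axis, log2) against mean normalized log2 intensity (horizontal axis) for the 8488 detected genes, with the dotted line at 2-fold. Coloured points are the 138 genes high on array 1 alone, the 61 high on array 3 alone and the 36 low on array 1 alone; Ttr has the widest range.

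Genes of the choroid plexus stood out on array 3. Ttr, which encodes the thyroid hormone carrier transthyretin that the choroid plexus secretes, had deposited intensities of 188.9, 459.7, 15699 and 455.8 on arrays 1 to 4. On the normalized scale these were 5.76, 8.35, 14.13 and 8.26, the widest range of any bright gene at 8.38 log2 units. Array 3 was thus the only array with a Ttr signal among the brightest of the tissue, while array 1 was near the lowest detected level. Ecrg4, a secreted peptide precursor of choroid plexus epithelium, had 6.71, 6.91, 10.24 and 7.30. Kl, which encodes klotho, had 6.53, 6.24, 8.64 and 6.56, and Sostdc1, a secreted antagonist of BMP and Wnt signalling, had 5.54, 5.85, 8.05 and 5.65. All 3 were high on array 3 and similar on the rest. Slc13a4, a sulfate transporter of choroid plexus and meninges, had 7.90, 9.49, 10.68 and 8.70. Igf2, a growth factor that choroid plexus and meninges express, had 11.25, 12.36, 13.19 and 11.61. For both, array 3 was highest and array 1 lowest. Of 9 detected choroid plexus genes, 7 were highest on array 3, against 25.6% of all detected genes, with a median deviation of 1.48 above their own means (0.93 without array 4). Clic6, with 10.58, 10.70, 11.25 and 10.88, was also highest on array 3, while Calml4 and F5 were not. The choroid plexus list held 0.03%, 0.06%, 0.25% and 0.04% of the signal on arrays 1 to 4. Folr1, Aqp1, Otx2, Tmem72, Kcne2, Cldn2 and Ace, also markers of this tissue, were not detected on all 4 arrays. Only 1 of these 7 was detected on no array.

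Thalamic genes were highest on array 3 as well and lowest on array 4. Tnnt1, a troponin T gene that serves as a marker of thalamic neurons in mouse brain, had 7.20, 7.52, 9.85 and 6.48. Prkcd, protein kinase C delta, which is abundant in thalamic relay neurons, had 7.56, 7.86, 10.18 and 7.34. Gbx2, a homeobox gene of thalamic development, had 8.35, 8.56, 9.66 and 7.08. Each was over 1 log2 unit higher on array 3 than on any other array. Tcf7l2, a Wnt pathway transcription factor of thalamus and habenula, had 9.46, 8.92, 10.001 and 8.13, and Ntng1, netrin G1, had 10.81, 10.55, 11.23 and 10.17. Ramp3, a receptor activity-modifying protein, had 6.91, 6.96, 8.38 and 6.27, and its second probe had 6.15, 6.27, 7.76 and 6.06. Of 14 detected thalamus genes, 11 were highest on array 3 (25.6% of all genes were) and 10 were lowest on array 4 (22.5% of all genes were). Their median deviation was 0.47 above their means on array 3 and −0.38 on array 4 (−0.18 there without array 3). Calb2, the brightest of the list with 13.41, 13.52, 13.48 and 13.40, did not share the pattern, and calretinin is also made in hypothalamus.

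Promoter sequences of 4 of these genes are shown because the genes peak on the same array, with 2 from thalamus and 2 from choroid plexus. They are RefSeq sequences of the mouse assembly GRCm38.p6, written 5′ to 3′ on the strand of the gene, with 250 bases before the annotated start and 50 after it. Capitals mark the letters TATAAA. Tnnt1 spans chr7:4515926-4516225 (minus strand), Prkcd chr14:30626159-30626458 (minus strand), Kl chr5:150952357-150952656 (plus strand) and Slc13a4 chr6:35308077-35308376 (minus strand).
Tnnt1: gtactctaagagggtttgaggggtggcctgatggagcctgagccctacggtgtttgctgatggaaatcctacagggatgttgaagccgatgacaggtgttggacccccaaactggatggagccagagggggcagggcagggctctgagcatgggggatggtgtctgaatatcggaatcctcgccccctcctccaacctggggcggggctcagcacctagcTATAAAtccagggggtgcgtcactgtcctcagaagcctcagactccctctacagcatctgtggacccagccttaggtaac
Prkcd: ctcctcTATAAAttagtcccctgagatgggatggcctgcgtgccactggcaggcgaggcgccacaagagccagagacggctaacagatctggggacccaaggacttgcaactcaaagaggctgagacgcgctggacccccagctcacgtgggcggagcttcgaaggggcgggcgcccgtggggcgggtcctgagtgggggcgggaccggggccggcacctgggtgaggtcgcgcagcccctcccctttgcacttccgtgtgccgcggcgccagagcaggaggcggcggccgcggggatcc
Kl: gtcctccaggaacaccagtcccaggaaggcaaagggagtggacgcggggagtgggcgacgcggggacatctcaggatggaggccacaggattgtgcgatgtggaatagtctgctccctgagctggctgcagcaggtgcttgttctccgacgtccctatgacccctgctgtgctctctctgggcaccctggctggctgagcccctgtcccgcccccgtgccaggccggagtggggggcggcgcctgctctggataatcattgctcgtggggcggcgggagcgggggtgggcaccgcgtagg
Slc13a4: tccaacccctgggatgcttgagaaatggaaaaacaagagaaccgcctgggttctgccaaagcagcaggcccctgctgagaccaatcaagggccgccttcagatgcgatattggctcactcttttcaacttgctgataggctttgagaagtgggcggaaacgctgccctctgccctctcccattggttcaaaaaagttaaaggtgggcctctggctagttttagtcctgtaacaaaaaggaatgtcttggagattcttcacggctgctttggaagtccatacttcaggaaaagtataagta
In Tnnt1 the match begins 30 bases before the annotated start, where a TATA box usually lies, and in Prkcd it begins 244 bases before the start. Promoters were read for 8 of the choroid plexus and thalamus genes over 2-fold that peak on array 3. Those of Ttr, Sostdc1, Gbx2 and Tcf7l2, which also peak there and exceed 2-fold, were not among them. Of the 8, 2 hold TATAAA on either strand, against 14.2% of all 27025 promoters. The letters ATCAAAG, a TCF/LEF motif, and TAATCC, an OTX motif, searched likewise on both strands, are in none of the 8. They are in 3.76% and 7.15% of all promoters and in 2.40% and 5.69% of those of detected genes. A match is a run of letters and not a measured binding site.

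Some further neuronal genes were highest on array 3, chosen here after their values were seen. Slc6a3, the dopamine transporter, had 9.38, 7.80, 11.09 and 7.93, so it was high on array 3 and second on array 1. Th, the enzyme that makes the dopamine precursor, had 8.51, 8.80, 9.28 and 8.47, with array 3 again highest. Slc18a2, the vesicular transporter that dopamine neurons also use, had 5.50, 5.87, 5.31 and 6.43 and was lowest on array 3. Of the 8 detected genes of monoamine synthesis and transport, 3 were highest and 3 lowest on array 3, so the list as a whole did not follow Slc6a3. Scn4b, a sodium channel subunit in the striatum list, had 8.16, 8.08, 9.998 and 8.73. The nicotinic receptor subunit genes Chrna4, with 9.10, 8.73, 9.82 and 8.76, and Chrna6, with 5.93, 5.34, 6.86 and 5.24, were highest there too. Gabrd, a GABA receptor subunit abundant in thalamus, had 5.11, 5.25, 7.44 and 5.82. Second probes for Chrna4, Chrna6 and Gabrd were each highest on array 3 as well. Of the 61 genes high on array 3 alone, 13 were in the choroid plexus, meninges or thalamus lists, which hold 32 detected genes (0.719% of all detected genes are in the class). Myelin genes were highest on array 3 for 14 of 16, against 25.6% of all genes, with a median deviation of 0.33 (0.19 under median scaling). That lead was smaller than for the choroid plexus and thalamus lists, and none of the 16 exceeded 2-fold. Median scaling moved the median of all genes on array 3 by −0.13. Other lists also leaned to array 3. Of pericyte and smooth muscle genes 8 of 11 were highest there and 0 lowest, with a median deviation of 0.30. Cortex and hippocampus had 7 of 12 highest and 3 lowest (0.15), and striatum 6 of 12 highest and 3 lowest (0.12). Calcium signalling had 8 of 14 highest and 0 lowest (0.11).

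The meninges and fibroblast genes split array 3 and array 1. Ptgds, which makes prostaglandin D2 and is secreted by the leptomeninges, had 10.13, 11.53, 11.96 and 11.38. Among bright genes over 2-fold, its nearest by distance of centred values over the 4 arrays were Ccn2, Gstm2, Mgp, Bgn and Slc47a1. Mgp, the matrix Gla protein that restrains calcification, had 9.54, 10.52, 11.36 and 10.52, and Ccn2, a matricellular growth factor, had 9.32, 10.52, 10.88 and 10.26. All 3 were lowest on array 1, and arrays 2, 3 and 4 lay closer together. Of 11 detected meninges genes, all were lowest on array 1 (29.3% of all genes were), with a median deviation of −0.86 (−0.54 without array 3). On array 3, 9 of the 11 were highest, with a median deviation of 0.84. The list shares Igf2 and Slc13a4 with the choroid plexus list. Igfbp2, an IGF binding protein, had 5.92, 6.94, 8.72 and 6.84 and had the widest range of the list.

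Most peptide genes were low on array 3. Of 23 detected neuropeptides, 16 were lowest on array 3 (26.6% of all genes were) and 15 were highest on array 4 (25.2% of all genes were). Npy, the appetite-stimulating peptide of arcuate neurons, had 11.11, 11.34, 10.45 and 11.85, so array 3 was 1.39 log2 units below array 4. Kiss1, the peptide that drives gonadotropin release, had 6.56, 7.13, 5.99 and 7.28, and Vip, a peptide of the suprachiasmatic nucleus, had 8.21, 8.19, 7.75 and 8.49. Gal, Cartpt, Trh and Hdc were also lowest on array 3. Cck, which cortex and thalamus also express, had 9.38, 9.64, 10.20 and 9.30 and was highest on array 3. The hypothalamic peptide Hcrt was also highest there, and the brightest peptides, Pmch, Oxt and Avp, were not lowest there. Of the 11 detected hypothalamic transcription factors, 5 were lowest on array 3 and 6 highest on array 4. Tbx3, a factor of arcuate neurons, had 7.31, 7.47, 6.53 and 7.67, while Lmx1a, with 7.07, 6.39, 7.26 and 6.34, was highest on array 3 and lowest on array 4. The median deviation of the neuropeptide list was −0.19 on array 3 (−0.34 under median scaling) and 0.14 on array 4 (0.06 without array 3). Median scaling moved the median of all genes on array 3 by −0.13, so the −0.34 includes a shift shared with other genes. Markers of choroid plexus, meninges, thalamus and other lists given above thus were high on the array where most peptides were low. Their part in the peptide values was not tested.

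**Figure D4:**
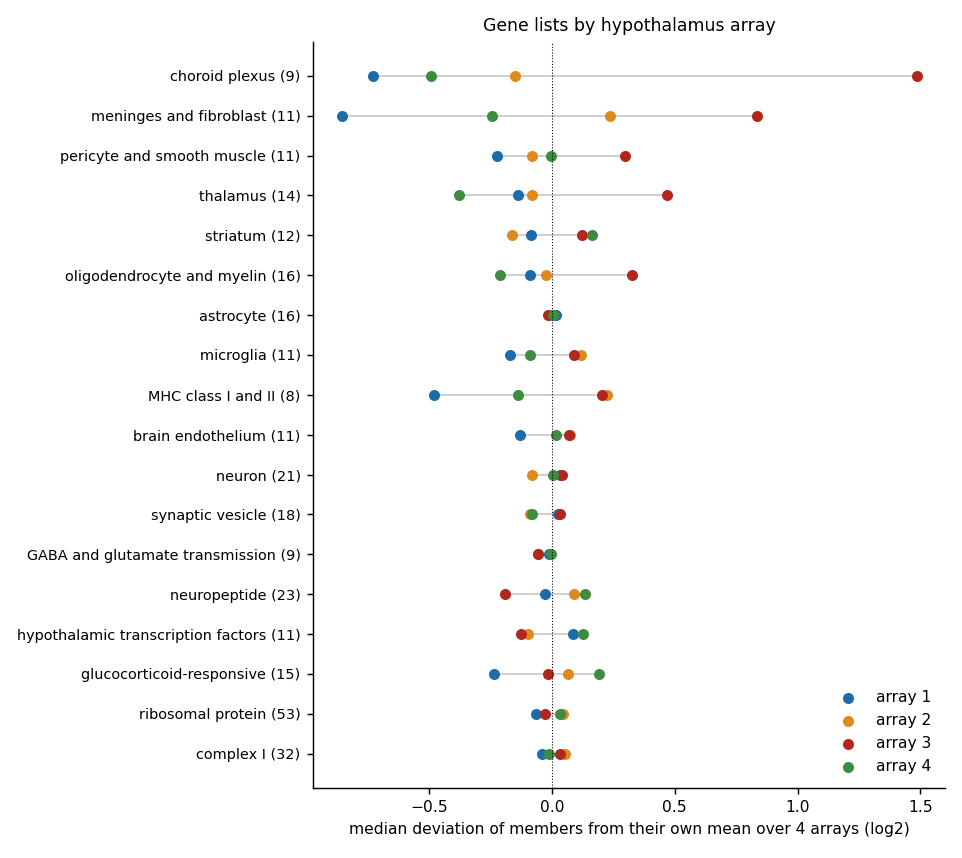
Median deviation of the members of 18 gene lists from their own means over the 4 hypothalamus arrays (horizontal axis, log2), with 1 coloured point per array and the number of detected genes in brackets. Array 3 lies to the right for choroid plexus (1.48), meninges (0.84) and thalamus (0.47) and to the left for neuropeptides (−0.19), and array 1 lies to the left for meninges (−0.86).

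Array 1 carried the largest group of varying genes. The 138 genes were 1.63% of all detected genes. Of the 18 detected synaptic vesicle genes 2 were in the group, of the 9 of GABA and glutamate transmission 2, and of the 21 neuron markers 0. The group as a whole had the long gene spans given above. Ogfrl1, an opioid growth factor receptor-like gene, had 10.19, 8.46, 8.71 and 8.33. Ddx6, an RNA helicase of mRNA decay, had 10.22, 8.53, 8.995 and 8.62. Map1b, a microtubule-associated protein of axons, had 11.00, 9.59, 9.996 and 9.64. In each, array 1 lay at least 1 log2 unit above the rest, which were close together. Cacna2d1, a calcium channel subunit, had 10.99, 9.41, 9.56 and 9.66, and Scn1a, a sodium channel, had 10.08, 8.49, 9.23 and 8.89. A second Map1b probe was dimmer and had 7.15, 6.74, 6.63 and 6.43, also highest on array 1. The AMPA receptor subunit Gria2 had 11.79, 11.14, 10.62 and 10.98. By distance of centred values, the 5 genes nearest to Ogfrl1 among bright genes over 2-fold were Ddx6, Map1b, Cacna2d1, Pde1a and Hjurp. Of the 138 genes, 35 were bright. General neuron markers did not share the pattern: 6 of 21 were highest on array 1, with a median deviation of 0.03, against 25.7% of all genes. Serpina3n, a serine protease inhibitor of reactive astrocytes, was an astrocyte gene in this group, with 12.22, 11.23, 10.61 and 11.34.

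Several lists were mostly lowest on array 1, as were 29.3% of all detected genes. Of 8 detected MHC genes, 7 were lowest on array 1, among them Cd74, the invariant chain of antigen-presenting cells, with 6.93, 8.29, 8.79 and 7.36. H2-Ab1, a class II chain, had 6.22, 7.60, 7.56 and 6.87. Both were over 1 log2 unit higher on arrays 2 and 3 than on array 1 after background correction, which widens ranges of dim probes. Their deposited intensities on arrays 1 to 4 were 266.5, 445.9, 474.1 and 304.6 for Cd74. For H2-Ab1 they were 212.0, 322.3, 265.5 and 254.3. All 4 detected lymphocyte and myeloid genes were lowest on array 1 as well, with a median deviation of −0.43. Of 15 glucocorticoid-responsive genes, 12 were lowest on array 1 and 10 highest on array 4 (25.2% of all genes were), with median deviations of −0.24 and 0.19 (0.07 on array 4 without array 1). Cdkn1a, a cell cycle inhibitor, had 8.66, 9.40, 9.08 and 9.75, and Fkbp5, a cochaperone of the glucocorticoid receptor, had 7.67, 7.49, 7.89 and 8.18 and was lowest on array 2. Of 53 ribosomal protein genes, 28 were lowest on array 1, but their median deviation there was only −0.07. Of 32 complex I genes, 19 were lowest on array 1, with a median deviation of −0.04.

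**Figure D5:**
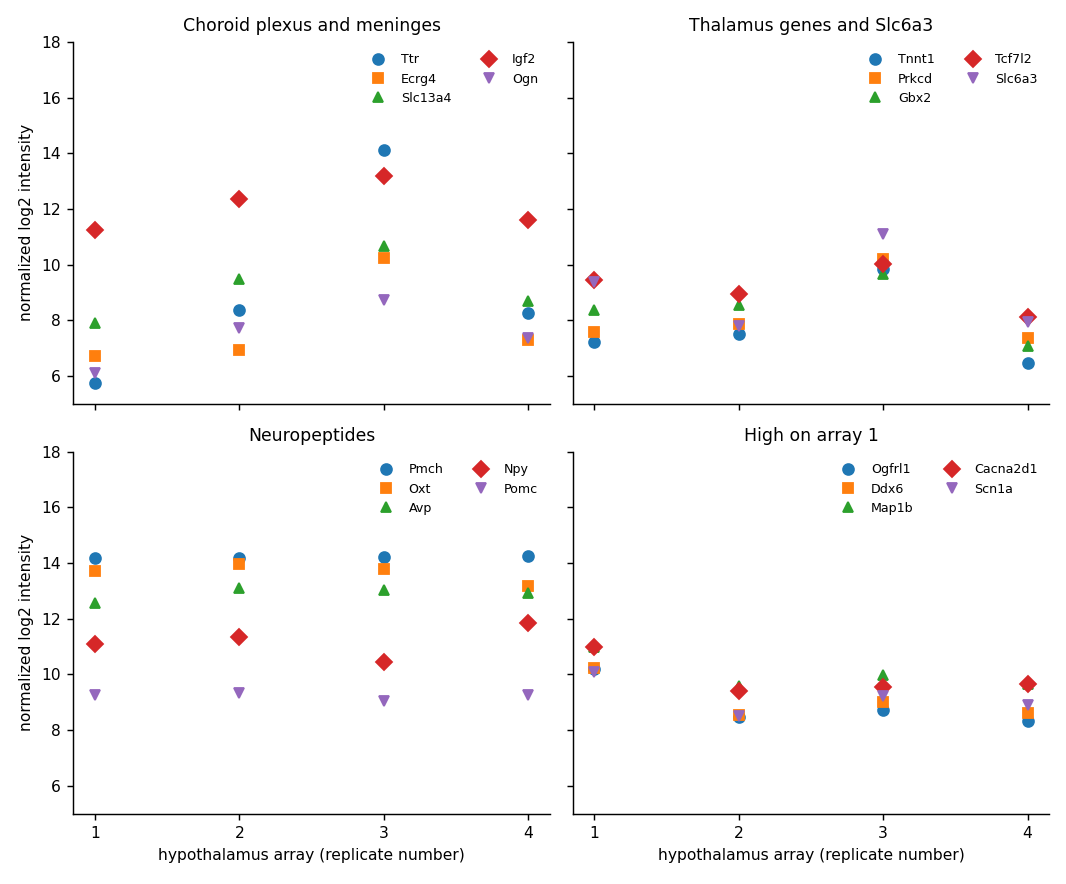
Normalized log2 intensity (vertical axis) on hypothalamus arrays 1 to 4 (horizontal axis) for named genes in 4 groups, with 1 marker per gene and array. Ttr is at 14.13 on array 3 and no higher than 8.35 on the others, Npy is lowest on array 3 at 10.45, and Map1b is highest on array 1 at 11.00.

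Second probes bore on how far these patterns depend on single probes. Among 72 genes over 2-fold with more than 1 detected probe, the second probe had the same highest array in 53, against 784 of 2085 for all such genes. For genes high on array 3 alone this was so in 9 of 9, for array 1 alone in 22 of 25, and for other classes in 22 of 38. The second probe was itself over 2-fold in 30 of the 72, and in 11 of the 25 for array 1 alone, and it fell in the same class in 38 of the 72. Its median range was 0.87, against 1.16 for the first probe. Sv2a, a synaptic vesicle protein, had a second probe at 13.07, 11.83, 12.17 and 12.17, with array 1 highest as in its first. Gria2 had a second probe at 10.50, 9.75, 9.42 and 9.65, again highest on array 1.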

How the data were processed

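Total RNA of 4 hypothalamus and 4 liver samples was hybridised to single-colour Illumina arrays, and samples were grouped by their titles. The deposited intensity values are linear and were not normalized between arrays, and the deposited detection p-value of each probe goes with them. Per the submitters' processing notes, R 2.15.0 and lumi 2.10.0 were used, with no role given. The authors also deposited a normalized intensity table, in which each hypothalamus column ranks the probes as the unnormalized one does (rank correlation 1). It was kept for an alternative. There were 0 columns of other samples. A genome build for the probes was not given in the sources used here.

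The 4 hypothalamus arrays were corrected with limma 3.58.1 in R 4.3.3 (normexp with controls inferred from detection p-values, offset 16), quantile-normalized together and put on the log2 scale. Shares of signal used the corrected linear intensity of each array with offset 0. The correction widens ranges of dim probes. Of the 25697 probes, 23978 had 1 gene symbol, 0 several and 1719 none, and the gene IDs of 23962 were found in the RefSeq table of GRCm38.p6, used for names and for which genes share a chromosome. A gene was read from its brightest detected probe.

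The 2 measures of signal concentration were tested by two-sided exact permutation at 0.05, adjusted by the Benjamini-Hochberg method. All else is description. The genes named are every Fmod probe, the 25 brightest genes, up to 3 of the brightest members and the widest-ranging member of each of 48 gene lists, the 20 bright genes with the widest range, and up to 5 genes and 5 nearest genes per class of arrays. Nearest genes were sought only among bright genes over 2-fold. Only part of the named genes are printed, and other list members were added after their values were seen. The members and lists were chosen with earlier results of these data known. The code that assigns ranges and classes was checked on simulated data, and the genes classed were not tested. Alternatives were other backgrounds, normalizations, detection filters and probe rules, the authors' table, a replicate block and leaving out each array.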

Additional observations from a re-analysis of the deposited data

Results flagged for a closer look

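A value was singled out where 1 of the 4 arrays of a tissue lay so far from the rest that the gap to its neighbour, as a share of the whole range, exceeded Dixon's critical value for 4 samples, which chance gives in about 1 in 20 groups of values. Of 129 named genes examined, 12 met this. Part of these genes were named for a wide range or for 1 array standing apart, so the chance rate does not apply to their count. Array 3 had the lowest median intensity of the hypothalamus arrays at 142.4. On array 3 the choroid plexus list held 0.252% of the signal, far above the other arrays. Also on array 3, 6 genes stood apart: Ecrg4 at 10.24, Kl at 8.64, Sostdc1 at 8.05, Gapdh at 14.59, Clu at 13.88 and Dbp at 12.50, each above the other arrays. Nms at 6.79 lay below the other arrays there. The gap of Gapdh and Clu was small in size, as both ranges were under 0.15 on the log2 scale. On array 1, Cacna2d1 at 10.99 and Hjurp at 9.84 lay above the other arrays and Mc4r at 5.61 below them. Ckb lay highest on array 4 at 15.10, within a small range that normalization set by its rank. Its shares of signal before normalization were 0.243%, 0.250%, 0.263% and 0.241% on arrays 1 to 4, lowest on array 4. Hspa8 lay lowest on array 2 at 14.48, again within a small range. Liver array 1 needed 410.0 probes to hold 50% of the signal, fewer than the other liver arrays.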

How the results depend on the processing

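The difference in signal concentration kept its direction under each alternative run. Same-numbered hypothalamus and liver arrays correlated at 0.0643 to 0.175 in their deviations from the tissue means, over 0.1 in 3 of 4 pairs, so the rule for pairing (every pair over 0.1) was not met. Each of the 4 hypothalamus arrays still correlated best with the liver array of its own number, a hint of pairing from the data and not from the design. With the replicate number as a block (exact sign-flip test of 4 pairs), the differences of −6.67 percentage points and 341.5 probes gave p = 0.125, the smallest that 4 pairs allow, so neither passed the threshold. Leaving out single arrays gave −6.88 to −6.42 percentage points and 330.8 to 348.8 probes at an exact p of 0.0571, the smallest that 3 against 4 allow. The count of 414 genes over 2-fold was 91 without background correction, 92 in the authors' table, 706 of 16593 genes without the detection filter, 78 among bright genes and 170 to 340 with 1 array left out. Without the filter, genes below detection were also tested. The count for array 1 alone, 138, was 31 without background correction, 32 in the authors' table, 35 among bright genes and 107 to 150 with 1 array left out. The count for array 3 alone, 61, was 36 under median scaling, 19 without background correction, 19 in the authors' table, 128 without the filter, 13 among bright genes and 63 to 70 with 1 array left out. The cause of the drop without background correction was not tested. Median scaling shifted the median of all genes on array 3 by −0.13, and myelin genes highest on array 3 then numbered 11 of 16. All 88 alternatives of list deviations kept their sign, with choroid plexus on array 3 between 0.93 and 1.62 and neuropeptides there between −0.34 and −0.14. The MHC deviation on array 1, −0.48, was −0.21 without background correction and −0.22 without array 3. Of the gene ranges, 2196 stayed within the spread and 296 moved; Ttr had a range of 6.66 without background correction and 2.62 without array 3. The median range was 0.47 for dimmer genes and 0.26 for bright ones, so signal near background limits the precision of dim genes.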

Other observations

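Further groups held some bright members. Imprinted genes, expressed from 1 parental copy, had a median percentile of 84.9 (17 of 23 detected). Of the 17, 3 ranged over 2-fold, Igf2 among them, as did 4.88% of all detected genes. They were led by Snrpn, an imprinted splicing protein of neurons, with log2 intensities of 14.27, 14.32, 14.18 and 14.18. Ndn, the Prader-Willi region gene necdin, had 13.49, 13.65, 13.68 and 13.84. Cholesterol synthesis genes had a median percentile of 41.7, although Hmgcs1, an early enzyme of the path, had 13.84, 13.78, 13.85 and 13.75. Dbp, a clock output transcription factor, had 12.17, 12.14, 12.50 and 12.15, and the neuronal activity gene Egr1 had 12.32, 12.59, 12.47 and 12.68. Hba-a1, an alpha globin of red cells, had 13.68, 14.46, 14.05 and 14.35 and was thus lowest on array 1.

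Some genes split the arrays by the same numbers in both tissues. Of the 195 genes over 2-fold in hypothalamus whose probe was also detected on all 4 liver arrays, 53 were over 2-fold in liver (6.79% of 6527 genes detected in liver were). Of the 53, 22 split the same numbers, and no share over all genes was taken for such splits. Tomm22, a receptor of the mitochondrial outer membrane, had deposited intensities of 1075, 2173, 159.7 and 2003 on hypothalamus arrays 1 to 4, against 649.8, 1297, 179.4 and 1511 on liver arrays 1 to 4. Atf4, a transcription factor of the stress response on the same chromosome, had 412.9, 738.1, 143.2 and 722.1 in hypothalamus, against 381.1, 576.8, 170.0 and 389.0 in liver. Both were lowest under number 3 in both tissues. Psmb5, a proteasome subunit, had 734.8, 343.2, 790.2 and 405.2 in hypothalamus, against 413.4, 169.6, 736.5 and 178.6 in liver. Apex1, a DNA repair enzyme on the chromosome of Psmb5, had 921.9, 458.4, 965.5 and 513.9 in hypothalamus, against 391.5, 255.6, 852.1 and 286.9 in liver. Both of these probes were high under numbers 1 and 3 in both tissues. A second, dimmer Apex1 probe went another way in hypothalamus, with log2 intensities of 6.21, 7.17, 6.77 and 7.27. Of the 26 genes high on hypothalamus array 3 alone that liver also detected, 4 were over 2-fold in liver and 0 split the same numbers. The labels do not tie liver and hypothalamus arrays of one number to 1 mouse. Slc25a18, a mitochondrial glutamate carrier of astrocytes, had 12.09, 11.87, 12.85 and 9.39 in hypothalamus and was low on array 4.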
